A study of Mus musculus with 12 samples.

Results

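Transcripts of the enzymes that make and recycle nucleotides, serine and folate-bound carbon units were followed through early T cell development in the mouse thymus. The group held 34 genes, listed by their role in these pathways, and 33 of them were measured, among 18193 genes on the array. Impdh2 had no probe set with a single gene symbol and has no value here. Thymocytes that carry neither CD4 nor CD8, called double negative (DN), were profiled at 3 successive stages on 12 Affymetrix Mouse Genome 430 2.0 arrays. All animals were female C57BL/6 mice aged 5 to 6 weeks with no other treatment or allele named. DN2 cells were CD44+CD25+, DN3 cells CD44-CD25+ and DN4 cells CD44-CD25-. Magnetic columns removed CD4+ and CD8+ cells before sorting, and all stages were negative for CD4, CD8, CD3, NK1.1 and the gamma-delta T cell receptor. In each of 4 sorts, thymocytes pooled from 4 mice (16 mice in all) gave 1 DN2, 1 DN3 and 1 DN4 sample, so no array shows a single animal.

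Purines are built stepwise on phosphoribosyl pyrophosphate (PRPP), whereas the pyrimidine ring is assembled first and joined to PRPP afterwards. Serine made from a glycolytic intermediate passes a carbon to folate, and folate carries that carbon into purines, thymidylate and methionine. Salvage enzymes recycle bases and nucleosides. In the thymus, DN3 cells that have made a T cell receptor beta chain divide rapidly as they become DN4 cells, and inherited loss of Ada or Pnp leaves few T cells.

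Values are log2 signals after quantile normalization, with 5.59 signal units added before taking the logarithm, so that folds of dim genes are understated. A gene was tested if it exceeded a signal of 20.2 on at least 4 arrays, which left 11171 genes, all 33 measured members among them. A gene is said to have risen, fallen or changed if its limma adjusted p over these genes was below 0.05. The sort markers followed the gates: the DN2, DN3 and DN4 means were 9.41, 5.72 and 5.58 for Cd44 and 11.18, 10.44 and 6.86 for Il2ra, which encodes CD25. Mast cells are a type not named in the gate. The summed signal of 7 genes listed as their markers was 2788 to 3758 in DN2, 92.7 to 260 in DN3 and 55.0 to 79.1 in DN4. Cpa3 made up most of the DN2 sum, with a mean log2 signal of 11.63 in DN2 and 7.01 in DN3. Hdc lay at 3.60 to 6.27 in DN2, and 5 of the 7, Mcpt4, Tpsb2, Cma1, Fcer1a and Ms4a2, did not pass the filter. The sum thus follows Cpa3 and does not show the other markers to be high in DN2. The summed signal of 12 myeloid markers was 1026 to 1879 in DN2, 388 to 494 in DN3 and 129 to 254 in DN4. Lyz1 was the brightest of them in DN2, at 9.18 to 9.70, and lay at 3.84 to 5.86 in DN4. Itgam, Fcgr3 and Cd14 did not pass the filter. Of the 9 tested, 4 were lower and 0 higher in DN4 than in DN2, where 16.7% and 17.9% of all genes were. Csf1r lay at 4.95 to 5.53 in DN2 and higher, at 5.63 to 5.81, in DN4. The sum does not show all 12 markers to be high in DN2. Median array signal before normalization was 16.7 to 28.0, 19.7 to 25.7 and 15.1 to 18.0, and the log2 ratio of the 3′ to the 5′ Gapdh control probe set was 1.10 to 1.82, 0.88 to 1.26 and 1.02 to 1.46 in DN2, DN3 and DN4. The part of the mast cell and myeloid markers in the results was not tested. In bulk samples such as these, fewer cells of a type and less RNA per cell cannot be told apart.

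From DN2 to DN4, most enzymes of the group increased. Between these stages 22 of 33 members changed, where 34.6% of all genes tested did. Of these 21 rose, where 17.9% of all genes were called higher, and 1 fell, where 16.7% were called lower. The member that fell was Uck2, a uridine-cytidine kinase. The median difference of the members was 0.63 on the log2 scale, and that of all genes tested was 0.06. The rise reached at least 2-fold in 5 members, namely Ctps, Psph, Cad, Shmt1 and Ada. From DN2 to DN3 8 members rose against a background of 4.77% and 0 fell against 6.48%, with a member median of 0.24 against 0.02 for all genes. With terms for the sort and for the Gapdh ratio together, 0 members rose at this step, against a background of 1.42%, and the member median was 0.30 against 0.03. From DN3 to DN4 6 rose against 7.22% and 1 fell against 9.06%, with medians of 0.35 and 0.05. The steps share the DN3 arrays and each shares arrays with the DN2 to DN4 comparison, so the counts are not independent of each other. All 4 arrays of the later stage lay above all 4 of the earlier in 11, 14 and 19 members for DN3 over DN2, DN4 over DN3 and DN4 over DN2, and in 8.11%, 12.5% and 17.0% of all genes. They lay below in 1 member each (Paics, Uck2 and Uck2), and in 9.33%, 11.5% and 15.5% of all genes.

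Samples of the same number came from the same pool of cells, and a fit with a term for the sort (the block) called more members at the single steps. The blocked fit called 15 members higher and 2 lower between DN2 and DN3, with backgrounds of 9.97% and 10.9% (0 higher once the Gapdh ratio was added), and 20 higher and 1 lower between DN3 and DN4, with backgrounds of 15.5% and 14.9%. Between DN2 and DN4 it called 24 higher and 1 lower, with backgrounds of 24.9% and 21.9%. The count of 8 members at the first step was 5 when DN3 replicate 3 or either of DN2 replicates 1 and 2 was left out and 3 without DN3 replicate 4. Without normalization between arrays the all-gene medians were 0.13, -0.41 and -0.29 for DN3 minus DN2, DN4 minus DN3 and DN4 minus DN2. The member medians were 0.40, -0.02 and 0.42. The members that rose then numbered 1, 0 and 9, where 2.63%, 0.348% and 2.56% of all genes were called higher. The 1 at the first step was Aprt, and the 9 were Ada, Atic, Cad, Ctps, Mthfd1, Nme1, Psph, Shmt1 and Shmt2. Relative to the all-gene median the members stood 0.27, 0.39 and 0.71 higher in that setting, and 0.22, 0.30 and 0.57 higher after quantile normalization.

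**Figure D1:**
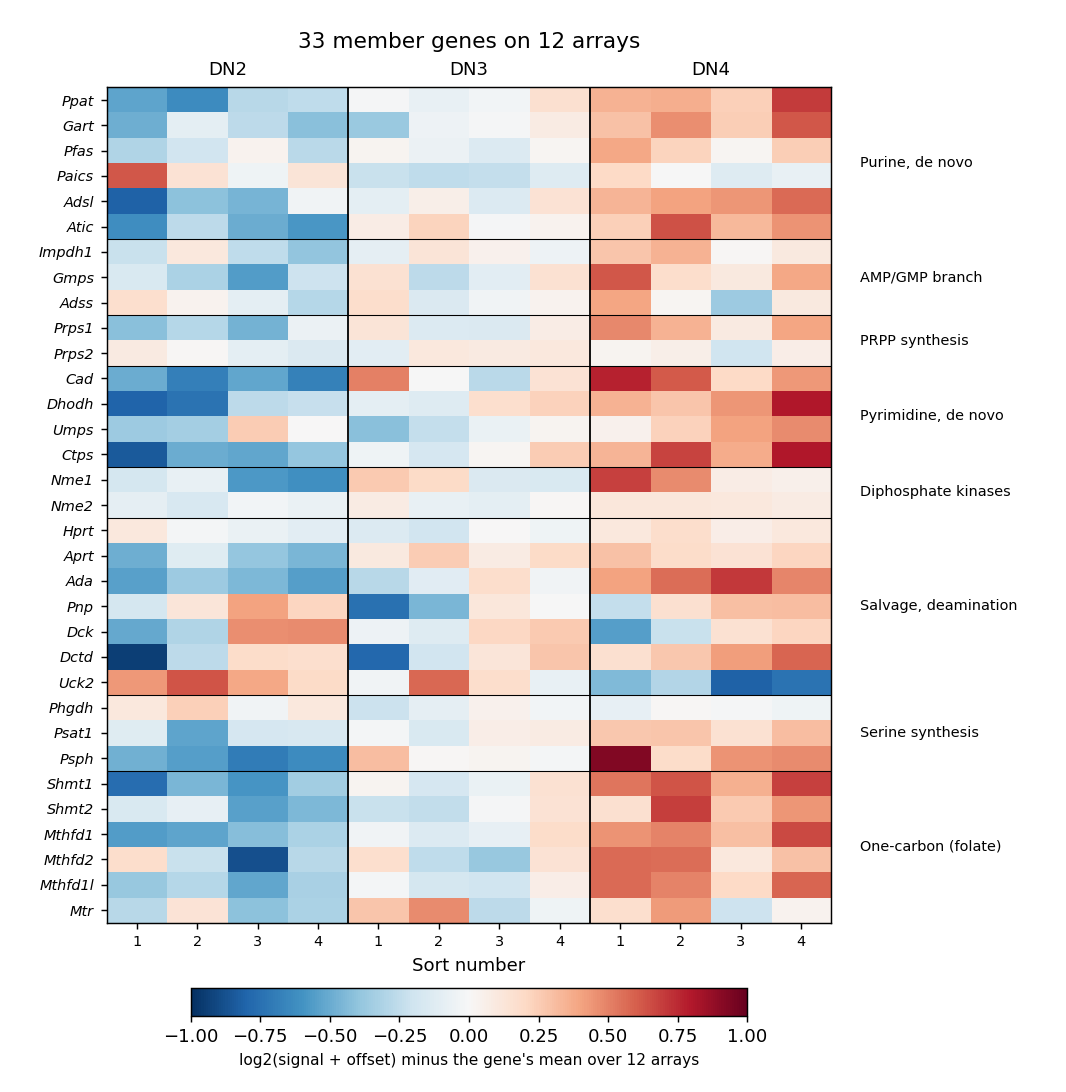
Log2 signal of 33 members (rows, grouped by role) on 12 arrays (columns, by stage and sort), each as the difference from that gene's mean over all arrays; red is above and blue below the mean. Most rows pass from blue in DN2 to red in DN4, while Uck2 runs the other way and Phgdh, Prps2, Nme2 and Hprt stay pale.

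The plot of all members by array shows how far the 4 sorts shared this course. Averaged over the 33 members, the deviation from each gene's mean was -0.30, -0.21, -0.25 and -0.22 in DN2 sorts 1 to 4. It was -0.05, -0.06, -0.03 and 0.07 in DN3 and 0.28, 0.30, 0.15 and 0.33 in DN4. The 3 stages did not overlap in this average, which is given as a description. The stage means ran upward from DN2 through DN3 to DN4 in 24 of 33 members (72.7%), as in 30.2% of all genes tested. The medians were also taken within sorts 1 and 2 and within sorts 3 and 4. For DN4 minus DN2 the member median was 0.60 in sorts 1 and 2 and 0.60 in sorts 3 and 4. For DN3 minus DN2 it was 0.23 and 0.32, and for DN4 minus DN3 it was 0.40 and 0.28.

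**Figure D2:**
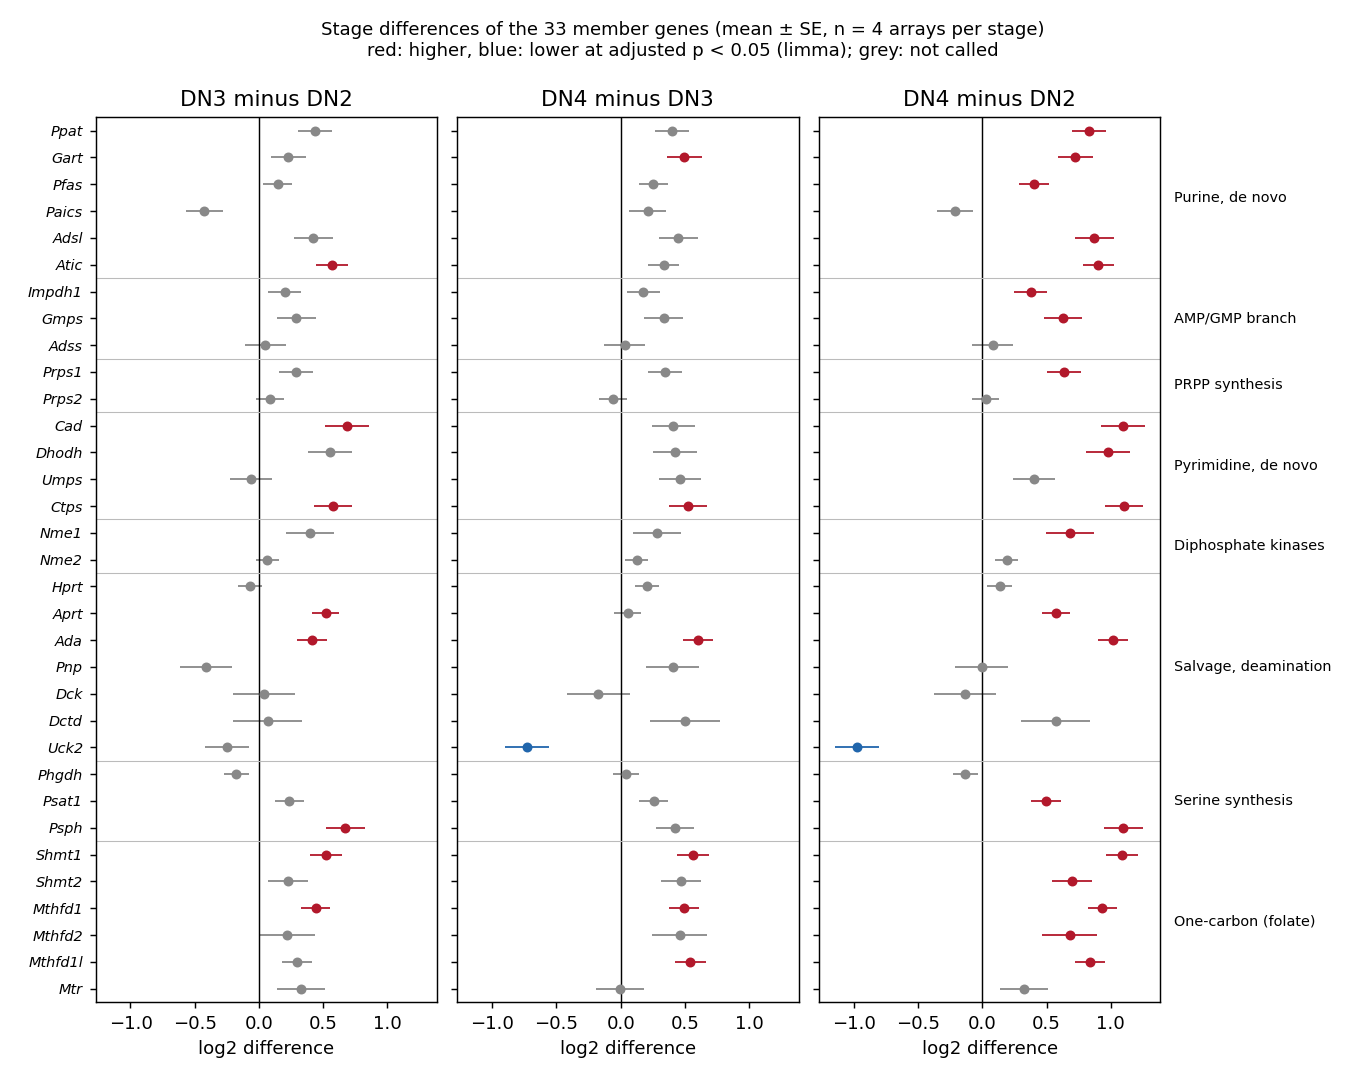
Differences in log2 signal between stages for 33 members, grouped by role, as the limma estimate ± SE with 4 arrays a stage; red members rose, blue members fell and grey ones did not pass the adjusted p of 0.05. Most points lie to the right of 0 in each panel, and 21 of them are red in the panel for DN4 minus DN2.

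The 6 measured enzymes of the purine ring pathway included 5 that rose from DN2 to DN4, where 17.9% of all genes did. Ppat, the amidophosphoribosyltransferase that commits PRPP to purine synthesis, had log2 values of 9.27, 9.17, 9.52 and 9.54 in DN2 sorts 1 to 4, 9.79, 9.73, 9.77 and 9.96 in DN3, and 10.15, 10.16, 10.03 and 10.49 in DN4. The 3 stages did not overlap. Ppat rose by 0.83 ± 0.13 (log2, SE, n = 4 arrays a stage) from DN2 to DN4, which is 1.78-fold, with a limma adjusted p of 0.000482. The single steps of 0.43 (adjusted p = 0.0527, and 0.0127 in the blocked fit) and 0.40 (0.0582, and 0.0142 with the block) did not pass without the block, except the first when DN4 replicate 4 was left out (0.0395).

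Gart, which carries 3 activities of the pathway in a single protein, had values of 10.14, 10.53, 10.37 and 10.21 in DN2, 10.26, 10.58, 10.62 and 10.71 in DN3, and 10.92, 11.10, 10.88 and 11.25 in DN4. Every DN4 array lay above all DN2 and DN3 arrays, which overlapped each other. Gart rose by 0.50 ± 0.14 from DN3 to DN4 (limma adjusted p = 0.0299) and by 0.72 ± 0.14 from DN2 to DN4 (0.00176). The call from DN3 to DN4 ended without DN3 replicate 1, 2 or 3 or DN4 replicate 2 or 4, with adjusted p of 0.0538 to 0.0888. Pfas, the amidotransferase after the first Gart steps, had values of 9.05, 9.16, 9.38 and 9.08 in DN2, 9.38, 9.29, 9.21 and 9.37 in DN3, and 9.73, 9.57, 9.37 and 9.595 in DN4. In sort 3 its DN2 and DN4 values were close, 9.38 and 9.37, and DN4 was the higher in the other 3 sorts. It rose by 0.40 ± 0.12 from DN2 to DN4 (adjusted p = 0.0181, 0.0526 without DN4 replicate 1, and 0.123 with terms for the sort and the Gapdh ratio).

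Adsl, which acts both in the ring pathway and in the branch to AMP, had values of 8.996, 9.39, 9.34 and 9.77 in DN2, 9.71, 9.86, 9.67 and 9.95 in DN3, and 10.15, 10.21, 10.25 and 10.37 in DN4. DN4 stood above both earlier stages, and the sort 4 sample of DN2 reached into the range of DN3. Adsl rose by 0.87 ± 0.15 from DN2 to DN4 (limma adjusted p = 0.000904). Its steps of 0.42 and 0.45 had adjusted p of 0.0980 and 0.0621, and 0.0217 and 0.0131 in the blocked fit. Leaving out DN2 replicate 4 gave 0.0244 and 0.0320, and leaving out DN2 replicate 1 gave 0.0309 for the second.

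Atic closes the purine ring to give IMP. Its values were 9.33, 9.69, 9.45 and 9.37 in DN2, 10.02, 10.17, 9.93 and 9.98 in DN3, and 10.19, 10.59, 10.27 and 10.40 in DN4, with no overlap between stages. It rose by 0.57 ± 0.12 from DN2 to DN3 (limma adjusted p = 0.0101) and by 0.90 ± 0.12 from DN2 to DN4 (0.000166). The step of 0.33 from DN3 to DN4 passed with the block (adjusted p = 0.0841, and 0.0137 with the block). The promoters of the members were searched on both strands for 2 motifs in the 250 bases before the start, in RefSeq windows of GRCm38.p6. CACGTG is the E-box that factors such as MYC recognise, and TGATGNAA is found in promoters that answer to a lack of amino acids. CACGTG was present in 5 of 39 windows of the 32 members that had one (12.8%), and in 6.02% of 32851 promoter windows. Its holders were Atic, Nme1, Paics and Impdh2, of which Atic and Nme1 changed. In all, 2 of 20 members that changed held it, as did 2 of the 12 others, which include the unmeasured Impdh2. Counted by gene, 6.86% of 27025 genes held it. TGATGNAA was present in 1 of the 39 windows, that of Prps1, and in 3.45% of all windows. The Atic stretch ends at the base before the start, at chr1:71557109-71557155 on the plus strand, and is shown because Atic had the smaller adjusted p of the changed members with an E-box; capitals mark the motif, whose first base lies 7 bases before the start.
Atic: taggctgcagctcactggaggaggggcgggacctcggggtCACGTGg
A match describes these letters and is not shown to be a bound site.

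Paics, which carries out the carboxylation and the aspartate-adding step just before Adsl, was the ring enzyme that did not rise. Its values were 12.79, 12.31, 12.13 and 12.29 in DN2, 11.95, 11.91, 11.92 and 12.04 in DN3, and 12.37, 12.16, 12.03 and 12.09 in DN4. All DN2 arrays lay above all DN3 arrays, and sort 1 of DN2 was the highest. The difference of -0.42 ± 0.14 between DN3 and DN2 did not pass (limma adjusted p = 0.0760), but did in the blocked fit (0.0260) and without DN2 replicate 3 (-0.51, 0.0477). DN4 minus DN2 was -0.22 (adjusted p = 0.262). The other Paics probe sets above the filter gave -0.21 and 0.19 for DN3 minus DN2. Paics and Ppat are head-to-head neighbours on chromosome 5 of GRCm38.p6. Paics starts at base 76951302 on the plus strand and Ppat at 76951578 on the minus strand, so that their annotated ends overlap by 277 bases. For DN3 minus DN2 these neighbours gave -0.42 and 0.43, and for DN4 minus DN2 -0.22 and 0.83.

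At the branch from IMP to GMP and AMP, 2 of 3 measured members rose from DN2 to DN4, both on the GMP side, where 17.9% of all genes rose. Gmps, the GMP synthase, had values of 10.92, 10.76, 10.51 and 10.86 in DN2, 11.23, 10.81, 10.96 and 11.22 in DN3, and 11.69, 11.25, 11.17 and 11.46 in DN4. All DN4 arrays exceeded all DN2 arrays, and the rise was 0.63 ± 0.15 (limma adjusted p = 0.00692). Its steps of 0.29 and 0.34 passed in the blocked fit (adjusted p = 0.259 and 0.149, and 0.0465 and 0.0209 with the block). The probe sets of Gmps disagreed. The other 2 above the filter gave -0.32 and -0.34 for DN4 minus DN2, and the mean of all its probe sets gave -0.01 with an adjusted p of 0.951, so the direction for Gmps rests on its brightest probe set.

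Impdh1, an IMP dehydrogenase, had values of 8.60, 8.93, 8.57 and 8.43 in DN2, 8.74, 8.95, 8.87 and 8.78 in DN3, and 9.10, 9.17, 8.84 and 8.93 in DN4. The stages overlapped, and DN4 exceeded DN2 within each of the 4 sorts. It rose by 0.38 ± 0.13 (limma adjusted p = 0.0394). It lost this call when any of DN2 replicates 1, 3 and 4, DN3 replicates 3 and 4 and DN4 replicates 1, 2 and 4 was left out, with adjusted p of 0.0514 to 0.104. Adss, the adenylosuccinate synthase on the AMP side, had DN4 minus DN2 of 0.08 ± 0.16 (adjusted p = 0.724), with values of 10.46 to 10.92 in DN2, 10.60 to 10.92 in DN3 and 10.39 to 11.14 in DN4.

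PRPP, the sugar phosphate that all these routes consume, is made by Prps1 and Prps2. Prps1 had values of 10.02, 10.15, 9.97 and 10.38 in DN2, 10.57, 10.31, 10.30 and 10.52 in DN3, and 10.92, 10.79, 10.53 and 10.84 in DN4. DN4 lay above DN2 on every array and overlapped with DN3. Prps1 rose by 0.64 ± 0.13 from DN2 to DN4 (limma adjusted p = 0.00275), and the step of 0.35 from DN3 to DN4 passed in the blocked fit (adjusted p = 0.0918, and 0.0254 with the block). Its promoter holds TGATGTAA, and the stretch at chrX:140456393-140456480 on the plus strand is shown because no other member's window had this motif; the capitals begin 170 bases before the start.
Prps1: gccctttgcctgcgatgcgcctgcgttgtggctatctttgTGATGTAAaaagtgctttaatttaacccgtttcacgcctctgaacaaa
Prps2 had values of 11.84 to 12.08 in DN2, 11.88 to 12.10 in DN3 and 11.79 to 12.05 in DN4, and its DN4 minus DN2 was 0.03 ± 0.11 (adjusted p = 0.875). Its dimmer probe sets gave another picture. They measured 1.10 ± 0.12 and 0.65 ± 0.14 for DN4 minus DN2, with limma adjusted p of 4.58e-05 and 0.00402 in a fit of every probe set by itself.

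In pyrimidine synthesis 3 of 4 members rose from DN2 to DN4, by 0.98 to 1.11 on the log2 scale, where 17.9% of all genes rose. Cad, which joins the first 3 activities of the pathway in a single protein, had values of 9.07, 8.88, 9.05 and 8.90 in DN2, 10.07, 9.56, 9.30 and 9.71 in DN3, and 10.33, 10.18, 9.77 and 10.001 in DN4. The DN2 arrays lay close together below all others, and DN3 and DN4 overlapped through sort 1 of DN3. Cad rose by 0.69 ± 0.17 from DN2 to DN3 (limma adjusted p = 0.0201) and by 1.10 ± 0.17, or 2.14-fold, from DN2 to DN4 (0.000403). Leaving out DN2 replicate 2 or 4 or DN3 replicate 1 or 4 ended the first of these calls, with adjusted p of 0.0502 to 0.0535. Leaving out probe sets open to more than 1 transcript, it was 0.50 (0.177). The step of 0.41 from DN3 to DN4 had an adjusted p of 0.118, of 0.0389 in the blocked fit and of 0.0432 without DN3 replicate 1.

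Ctps, the CTP synthase, had values of 9.56, 9.90, 9.88 and 10.01 in DN2, 10.36, 10.24, 10.42 and 10.66 in DN3, and 10.74, 11.07, 10.77 and 11.20 in DN4. No stages overlapped. It rose at both steps, by 0.58 ± 0.15 (limma adjusted p = 0.0245) and 0.53 ± 0.15 (0.0307), and by 1.11 ± 0.15, or 2.15-fold, from DN2 to DN4 (0.000145). The step to DN3 was lost without DN2 replicate 1 or DN3 replicate 3 or 4 (adjusted p 0.0565 to 0.0765), and that to DN4 without DN3 replicate 1, 2 or 3 or DN4 replicate 2 or 4 (0.0663 to 0.0918). Dhodh, the mitochondrial dihydroorotate dehydrogenase, had values of 7.37, 7.44, 7.91 and 7.94 in DN2, 8.08, 8.05, 8.35 and 8.41 in DN3, and 8.52, 8.45, 8.62 and 8.98 in DN4, again with no overlap. It rose by 0.98 ± 0.17 from DN2 to DN4 (adjusted p = 0.000970). Its step of 0.55 to DN3 had an adjusted p of 0.0569, of 0.00364 with the block, and of 0.0431 to 0.0488 without DN2 replicate 3, DN2 replicate 4 or DN4 replicate 4. Its step of 0.42 to DN4 had 0.112, and 0.00904 with the block.

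Umps, which makes UMP from orotate, had values of 9.38 to 9.997 in DN2, 9.33 to 9.77 in DN3 and 9.79 to 10.22 in DN4. DN4 minus DN2 was 0.40 ± 0.16 (limma adjusted p = 0.0789) and DN4 minus DN3 0.46 (0.0752). Both passed in the blocked fit (0.00646 and 0.00632), and the first also without DN2 replicate 3 (0.52, 0.0274). Another Umps probe set, with a mean of 9.38 against 9.74 for the brightest, gave 0.72 ± 0.14 and 0.49 ± 0.14 for these differences. Its limma adjusted p were 0.00206 and 0.0377 in a fit of every probe set by itself. The dimmest Umps probe set above the filter gave 0.35 (0.275) and 0.22 (0.566) in that fit. The diphosphate kinases Nme1 and Nme2 equalise the phosphate on nucleotides of all kinds and are neighbours on chromosome 11. Nme1 had values of 11.69, 11.80, 11.30 and 11.26 in DN2, 12.13, 12.06, 11.73 and 11.72 in DN3, and 12.56, 12.34, 11.95 and 11.93 in DN4. Sorts 1 and 2 were higher than sorts 3 and 4 at every stage, and within each sort the values ran upward from DN2 to DN4. Nme1 rose by 0.68 ± 0.18 from DN2 to DN4 (limma adjusted p = 0.0130). With the mean of all its probe sets this was 0.32 (0.367), and its other probe set above the filter gave -0.05 ± 0.48. The steps of 0.40 and 0.28 passed with the block (adjusted p = 0.203 and 0.319, and 0.00893 and 0.0267 with it). Nme2 lay at 12.78 to 12.91 in DN2 and 13.01 to 13.05 in DN4, a difference of 0.19 ± 0.09 (0.122). An E-box lies in the stretch before the upstream start of Nme1, at chr11:93968273-93968330 on the minus strand, shown beside that of Atic as the other changed member with this motif, with the first capital 18 bases before the start.
Nme1: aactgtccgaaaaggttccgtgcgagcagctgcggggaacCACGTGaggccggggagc

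**Figure D3:**
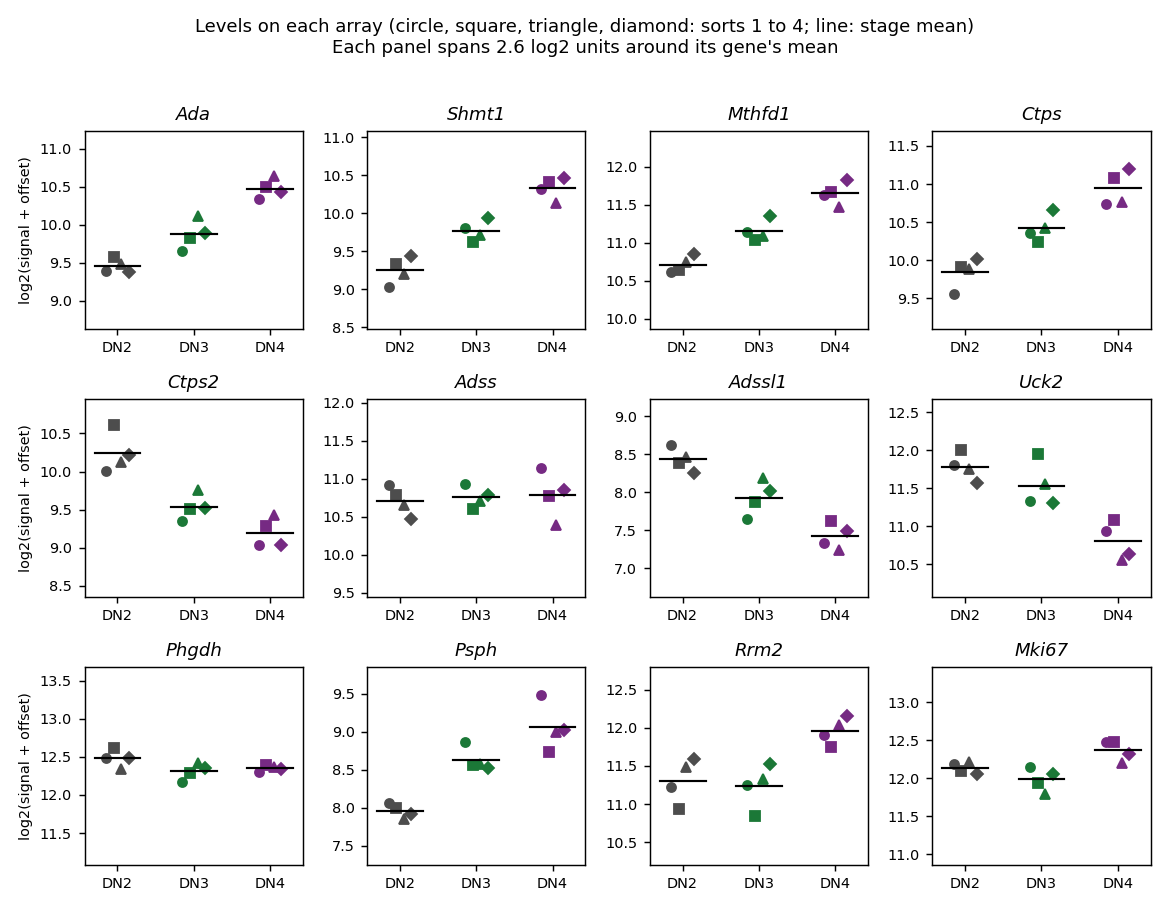
Log2 signal on each of the 12 arrays for 12 genes named in the text, by stage, with a marker for each sort and a line at the stage mean; each panel spans 2.6 log2 units. Ada, Shmt1, Mthfd1 and Ctps step upward at both transitions with no overlap between stages, Ctps2, Adssl1 and Uck2 have their lowest means in DN4, and the stages overlap for Adss and Phgdh.

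Of 7 salvage and deamination enzymes 2 were higher and 1 was lower in DN4 than in DN2, where 17.9% and 16.7% of all genes were. With 7 genes a departure from these shares was not tested. Ada, which deaminates adenosine and deoxyadenosine, had values of 9.39, 9.57, 9.49 and 9.38 in DN2, 9.66, 9.83, 10.11 and 9.90 in DN3, and 10.34, 10.49, 10.65 and 10.42 in DN4. The stages did not overlap, as the plot of levels for selected genes shows. Ada rose at both steps, by 0.41 ± 0.12 (limma adjusted p = 0.0442) and 0.60 ± 0.12 (0.00574), and by 1.02 ± 0.12, or 2.02-fold, from DN2 to DN4 (5.48e-05). The step from DN2 to DN3 lay near the threshold. It was lost without any single DN2 array, without DN3 replicate 2, 3 or 4, and without DN4 replicate 2 or 4, with adjusted p of 0.0513 to 0.123.

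Aprt, which salvages adenine, rose at the first step. Its values were 10.09, 10.46, 10.20 and 10.12 in DN2, 10.68, 10.83, 10.66 and 10.77 in DN3, and 10.88, 10.76, 10.73 and 10.80 in DN4, with DN2 below both later stages, which overlapped. The difference was 0.52 ± 0.11 from DN2 to DN3 (limma adjusted p = 0.00798), 0.05 ± 0.11 from DN3 to DN4 (0.774) and 0.57 ± 0.11 from DN2 to DN4 (0.00155). Hprt, which salvages hypoxanthine and guanine, had DN4 minus DN2 of 0.13 ± 0.10 (0.300), with values of 12.07 to 12.27 in DN2 and 12.24 to 12.35 in DN4.

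Uck2, which phosphorylates uridine and cytidine, was the member that fell. Its values were 11.81, 12.01, 11.76 and 11.56 in DN2, 11.34, 11.95, 11.55 and 11.30 in DN3, and 10.93, 11.09, 10.56 and 10.64 in DN4. All DN4 arrays lay below all DN2 and DN3 arrays. Uck2 fell by 0.73 ± 0.17 on the log2 scale from DN3 to DN4 (limma adjusted p = 0.0140) and by 0.98 ± 0.17, a 1.97-fold decrease, from DN2 to DN4 (0.000990). All 5 of its probe sets above the filter pointed downward from DN2 to DN4, by -0.27 to -1.29. The brightest can match several transcripts, and with such probe sets left out DN4 minus DN2 was -0.27 with an adjusted p of 0.352 and DN4 minus DN3 was -0.24 with 0.465.

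The remaining salvage members passed in no comparison. Pnp, the purine nucleoside phosphorylase, dipped at DN3, with values of 10.23, 10.52, 10.80 and 10.62 in DN2, 9.65, 9.95, 10.52 and 10.40 in DN3, and 10.16, 10.56, 10.71 and 10.71 in DN4. In every sort the DN3 value was the lowest of the 3 stages. Its differences of -0.41 ± 0.21 and 0.41 ± 0.21 at the steps had limma adjusted p of 0.239 and 0.196, and 0.0159 and 0.0131 in the blocked fit. Dctd, the dCMP deaminase, had DN4 minus DN2 of 0.57 ± 0.27 (0.121, and 0.00834 with the block) and DN4 minus DN3 of 0.50 (0.225, and 0.0239 with the block). Dck, the deoxycytidine kinase, had DN4 minus DN2 of -0.13 ± 0.24 (0.704), with values of 11.02 to 11.999 in DN2. Sorts 3 and 4 were the higher for Dck at every stage. Its dimmest probe set above the filter gave 1.05 ± 0.23 for DN4 minus DN2 (0.00473 in the fit of every probe set).

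In serine synthesis the first enzyme and the last differed in course. Phgdh, which draws 3-phosphoglycerate into the pathway, passed in no comparison, with 12.48, 12.62, 12.35 and 12.48 in DN2, 12.17, 12.29, 12.42 and 12.36 in DN3, and 12.30, 12.39, 12.37 and 12.34 in DN4. Its DN4 minus DN2 was -0.13 ± 0.10 (limma adjusted p = 0.334), and its 4 probe sets above the filter gave -0.15 to 0.02. All 4 can match several transcripts, and with such probe sets left out Phgdh had no value. The course of Phgdh therefore rests on probes open to other transcripts. Psat1, the transaminase that follows, had values of 10.94, 10.53, 10.89 and 10.89 in DN2, 11.04, 10.91, 11.13 and 11.14 in DN3, and 11.33, 11.34, 11.21 and 11.36 in DN4. DN4 lay above both earlier stages, and Psat1 rose by 0.49 ± 0.12 from DN2 to DN4 (0.00584).

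Psph, the phosphatase that releases serine, had values of 8.07, 8.002, 7.85 and 7.92 in DN2, 8.86, 8.56, 8.58 and 8.53 in DN3, and 9.48, 8.73, 8.999 and 9.02 in DN4. DN2 lay below all other arrays, and the sort 2 sample of DN4 lay within the range of DN3. Psph rose by 0.67 ± 0.15 from DN2 to DN3 (limma adjusted p = 0.0122) and by 1.10 ± 0.15, or 2.14-fold, from DN2 to DN4 (0.000174). The step of 0.42 from DN3 to DN4 had an adjusted p of 0.0748, of 0.0183 in the blocked fit and of 0.0383 without DN4 replicate 2.

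Of the folate enzymes 5 of 6 members rose from DN2 to DN4, where 17.9% of all genes did. Shmt1, the cytosolic serine hydroxymethyltransferase that moves the serine carbon to folate, had values of 9.03, 9.33, 9.20 and 9.44 in DN2, 9.81, 9.62, 9.72 and 9.94 in DN3, and 10.32, 10.42, 10.14 and 10.47 in DN4. The stages did not overlap. Shmt1 rose by 0.52 ± 0.12 (limma adjusted p = 0.0172) and 0.56 ± 0.12 (0.0104) at the steps and by 1.09 ± 0.12, or 2.13-fold, from DN2 to DN4 (4.57e-05). The first step was lost without DN3 replicate 4 (0.47, adjusted p = 0.0572). Its 4 probe sets above the filter gave 0.81 to 1.09 for DN4 minus DN2.

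Mthfd1, the cytosolic enzyme that interconverts the folate carbon units, had values of 10.61, 10.64, 10.74 and 10.85 in DN2, 11.13, 11.04, 11.09 and 11.35 in DN3, and 11.62, 11.66, 11.47 and 11.83 in DN4. No stages overlapped. It rose by 0.44 ± 0.12 (limma adjusted p = 0.0276), 0.49 ± 0.12 (0.0140) and, over both steps, 0.93 ± 0.12 (7.93e-05). The first step was lost without DN2 replicate 1 or 2 or DN3 replicate 1, 3 or 4, with adjusted p of 0.0508 to 0.0867. Ctps, Ada, Shmt1 and Mthfd1 were the 4 members that rose at both steps, 12.1% of the 33, and 0.788% of all genes tested did so.

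The mitochondrial folate enzymes had larger estimates at the later step than at the earlier. This order was not particular to them. It also held for Shmt1 (0.52 and 0.56), Mthfd1 (0.44 and 0.49) and the member median (0.24 and 0.35), but not for Mtr (0.33 and -0.004). The dimmer Mthfd2 probe set gave 0.27 and 0.29. The difference between the steps was not tested. Mthfd1l, the mitochondrial formate-releasing synthetase, had values of 9.07, 9.16, 8.93 and 9.12 in DN2, 9.42, 9.27, 9.25 and 9.51 in DN3, and 10.01, 9.94, 9.64 and 10.02 in DN4, without overlap. It rose by 0.54 ± 0.12 from DN3 to DN4 (limma adjusted p = 0.00936) and by 0.84 ± 0.12 from DN2 to DN4 (0.000208), and its first step of 0.30 passed in the blocked fit (0.141, and 0.0326 with the block). Shmt2, the mitochondrial serine hydroxymethyltransferase, had values of 11.14, 11.21, 10.75 and 10.84 in DN2, 11.07, 11.05, 11.28 and 11.44 in DN3, and 11.45, 11.98, 11.55 and 11.74 in DN4. DN4 lay above the other stages, which overlapped. It rose by 0.70 ± 0.15 from DN2 to DN4 (0.00447), and DN4 minus DN3 was 0.47 (adjusted p = 0.0582, 0.0463 with the block and 0.0480 without DN3 replicate 4).

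Mthfd2, the mitochondrial dehydrogenase and cyclohydrolase, was more variable, with 10.45, 10.05, 9.39 and 9.99 in DN2, 10.44, 10.01, 9.90 and 10.42 in DN3, and 10.84, 10.83, 10.37 and 10.57 in DN4. The sort 3 sample of DN2 was far below the rest, and the sort 1 sample of DN2 exceeded the lowest DN4 value. Mthfd2 rose by 0.68 ± 0.21 from DN2 to DN4 (limma adjusted p = 0.0274), which was lost without DN2 replicate 3 or DN4 replicate 1 or 2 (0.0686 to 0.0696). Its step from DN3 to DN4 was 0.46 (0.164, and 0.0289 in the blocked fit). Mtr, the methionine synthase, was the folate member that did not pass. DN3 minus DN2 was 0.33 ± 0.19 (0.319, and 0.0252 with the block) and DN4 minus DN2 0.32 (0.207, and 0.0123 with the block).

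**Figure D4:**
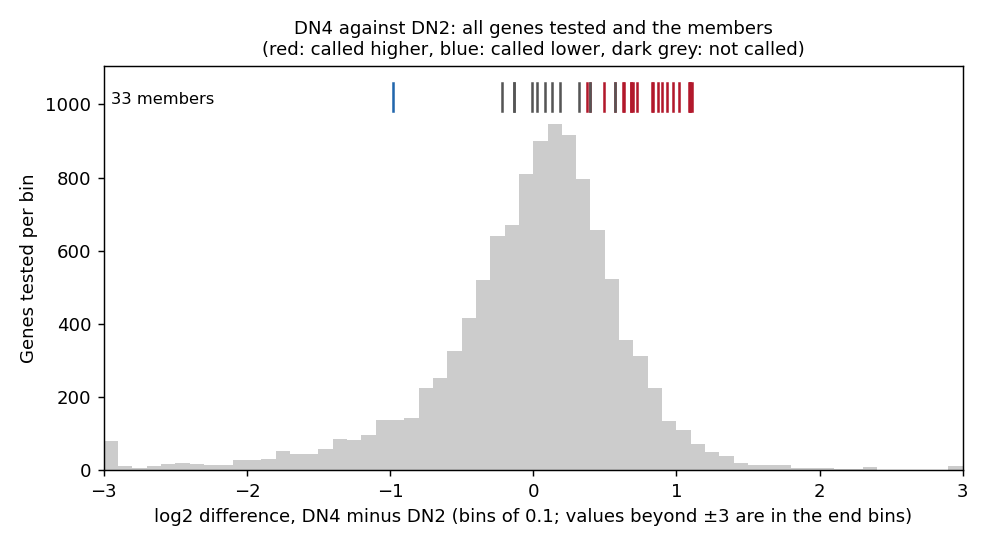
Histogram of DN4 minus DN2 in log2 signal for 11171 genes tested (grey bars, in bins of 0.1 with values beyond 3 in the end bins), with a tick for each of 33 members above. The members lie mostly on the right flank, with a median of 0.63 against 0.06 for all genes, and the single blue tick on the left is Uck2.

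The other genes of these pathways, 65 in a list from which 47 passed the filter with a value, had calls in both directions. From DN2 to DN4 13 rose and 5 fell, where 17.9% and 16.7% of all genes did. From DN2 to DN3 2 rose and 3 fell, near the all-gene shares of 4.77% and 6.48%. From DN3 to DN4 7 rose and 1 fell, where 7.22% and 9.06% of all genes did. The medians of the list were 0.15, -0.07 and 0.21 in this order. With the sort as a block the first step had 5 higher and 8 lower, against 9.97% and 10.9% of all genes. The later step had 14 higher and 2 lower with the block, against 15.5% and 14.9%. The 5 calls of the first step were 3 without DN2 replicate 2 or DN3 replicate 1, 2 or 4. The 8 of the later step were 5 without DN3 replicate 1, 4 without DN3 replicate 3 or DN4 replicate 1 or 3, and 2 without DN3 replicate 2 or DN4 replicate 4. Without normalization between arrays the DN4 to DN2 calls of Dctpp1, Dut, Rrm2, Dtymk, Slc19a1, Mtrr, Gcsh, Guk1 and Nt5c and the DN3 to DN2 calls of Ctps2, Adssl1 and Nme4 ended.

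Of isozymes that catalyse the same reaction as a member, Ctps2 and Adssl1 fell. Ctps2, the second CTP synthase, had values of 10.01, 10.61, 10.13 and 10.22 in DN2, 9.35, 9.50, 9.75 and 9.52 in DN3, and 9.03, 9.28, 9.42 and 9.03 in DN4. DN2 lay above all later arrays. It fell by 0.71 ± 0.15 from DN2 to DN3 (limma adjusted p = 0.00987) and by 1.05 ± 0.15, a 2.07-fold decrease, from DN2 to DN4 (0.000268), while Ctps rose by 1.11. Adssl1, the isozyme of Adss known from muscle, had values of 8.62, 8.39, 8.47 and 8.26 in DN2, 7.64, 7.87, 8.19 and 8.02 in DN3, and 7.34, 7.62, 7.24 and 7.49 in DN4, without overlap. From DN2 to DN4 it fell by 1.01 ± 0.14 (0.000192), a 2.02-fold decrease. Its steps of -0.51 and -0.51 had adjusted p of 0.0374 and 0.0294. The earlier call was lost without DN2 replicate 1, 2 or 3, DN3 replicate 1, 2 or 4 or DN4 replicate 4 (0.0504 to 0.104), and the later without DN3 replicate 2, 3 or 4 or DN4 replicate 1, 3 or 4 (0.0544 to 0.0866). Nme4, a mitochondrial diphosphate kinase, was lower in DN3 than in DN2 by a difference of -0.36 ± 0.11 at an adjusted p of 0.0496, which was 0.0540 to 0.133 in 11 of the 12 fits that each left out an array, the exception being DN4 replicate 4.

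Folate transport and use rose in part. Slc25a32, the mitochondrial folate carrier, rose by 0.69 ± 0.16 from DN2 to DN3 (limma adjusted p = 0.0128, and 0.46 with 0.168 for the mean of its probe sets) and by 1.15 ± 0.16 from DN2 to DN4 (0.000159). Slc19a1, the reduced folate carrier of the cell surface, rose by 0.74 ± 0.12 from DN2 to DN4 (0.000680), as did Mtrr, which reactivates Mtr, by 0.86 ± 0.15 (0.00114) and Gcsh, of the glycine cleavage system, by 0.57 ± 0.15 (0.0111). Of 12 folate and methionine genes tested 5 rose between DN2 and DN4 and 0 fell, where 17.9% and 16.7% of all genes did.

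Among 11 genes of deoxynucleotide and thymidylate supply, 0 changed from DN2 to DN3, where 11.3% of all genes did. From DN3 to DN4 4 rose, where 7.22% of all genes did. From DN2 to DN4 5 rose and 1 fell, where 17.9% and 16.7% of all genes did. At the first step limma in the blocked fit called 0 higher and 2 lower, against 9.97% and 10.9% of all genes. Rrm2, the regulated subunit of ribonucleotide reductase, had values of 11.22, 10.93, 11.49 and 11.59 in DN2, 11.25, 10.84, 11.32 and 11.52 in DN3, and 11.90, 11.75, 12.04 and 12.16 in DN4. DN2 and DN3 shared a range and DN4 lay above it. Rrm2 rose by 0.73 ± 0.18 from DN3 to DN4 (limma adjusted p = 0.0163, and 0.46 with 0.232 without normalization between arrays). From DN2 to DN4 Dctpp1, a dCTP pyrophosphatase, rose by 0.63 ± 0.11 (0.000897), Dut, the dUTPase, by 0.43 ± 0.11 (0.00837), and Dtymk, the thymidylate kinase, fell by 0.41 ± 0.11 (0.0150). With the mean of all its probe sets the Dtymk difference was -0.11 (0.516), and with arrays centred on their median -0.22 (0.354).

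Of other purine genes and carriers from DN2 to DN4, Xdh, the xanthine dehydrogenase that degrades purines, fell by 1.39 ± 0.28 (limma adjusted p = 0.00266). Xdh was dim, with values of 5.23 to 6.40 in DN2 and 3.76 to 4.80 in DN4, and the filter lay at 4.69. Every DN2 array exceeded the filter, so Xdh was tested through the stage where it was high. Its call was lost in sorts 3 and 4 alone (0.117) and with terms for the sort and the Gapdh ratio (0.0555). Guk1, the guanylate kinase, rose by 0.76 ± 0.16 (0.00339), and Nt5c, a nucleotidase, by 0.53 ± 0.16 (0.0258). The Nt5c call was lost without DN2 replicate 1 or 2 or DN4 replicate 3 or 4 (0.0535 to 0.0698). Slc1a4, a carrier of serine and alanine, rose by 1.14 ± 0.15 (0.000121) from a low mean of 4.45 in DN2. Its values were 4.11 to 4.82 in DN2, around the filter, 5.08 to 5.34 in DN3 and 5.41 to 5.76 in DN4. Slc1a4 was thus tested through the stages where it was high. Slc38a1, a glutamine carrier, fell by 0.56 ± 0.13 (0.00494). With probe sets that match several transcripts left out, the Slc38a1 difference was -0.40 (0.0646).

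Genes of cell division, listed to stand beside the members, were called at the later step and over both steps. Of 17 listed 16 were tested, and Rrm2 and Tyms among them also belong to the list of pathway genes. From DN2 to DN3 limma called 0 (0 at an unadjusted p below 0.05, and 1 in the blocked fit), with a median of -0.03, while 8 members of the synthesis group rose. From DN3 to DN4 9 division genes rose, where 7.22% of all genes did, and their list had a median of 0.43. From DN2 to DN4 8 rose, where 17.9% of all genes did, and the list had a median of 0.38. Mki67, a marker of cycling cells, had a mean of 12.14 in DN2, 11.99 in DN3 and 12.37 in DN4 and rose by 0.38 ± 0.11 from DN3 to DN4 (limma adjusted p = 0.0383). Pcna, the replication clamp, gave 0.10 at that step (0.456). The count of 9 was 5 without DN3 replicate 1, 4 without DN3 replicate 3 or DN4 replicate 1 or 2, and 3 without DN3 replicate 2 or DN4 replicate 4, and the count of 8 was 5 without DN2 replicate 2 or DN4 replicate 4. Without normalization between arrays these counts were 0 and 1, where 0.348% and 2.56% of all genes were called higher. With no filter on dim genes they were 3 and 5, against 2.31% and 8.6%. With arrays centred on their median the count from DN3 to DN4 was 4, against 2.26%. The part of cell division in the members' differences was not tested.

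In 20 of the 33 members more than 1 probe set passed the filter, which allows a look at the same gene through other probes. Their signs were opposed in 4 of 20 for DN3 minus DN2, 6 for DN4 minus DN3 and 5 for DN4 minus DN2. The 5 were Dck, Gmps, Nme1, Paics and Phgdh. For the called genes Atic, Cad, Dhodh, Gart, Mthfd1 and Ppat, the probe sets gave 0.90 to 0.99, 0.97 to 1.10, 0.98 to 1.16, 0.72 to 1.09, 0.93 to 1.03 and 0.83 to 1.05 for DN4 minus DN2. Under the 26 other ways of processing or choosing arrays, the DN4 to DN2 rises of Ada, Atic, Cad, Ctps, Mthfd1 and Shmt1 passed in all 26.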

How the data were processed

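The deposited intensity values, 1 linear signal for each probe set, were made by the authors; the submitters' processing notes name GCOS. Which version, algorithm and scaling were used is not given in the sources used here. RNA was amplified by a double round of cDNA synthesis, per the labels' protocols. Of 45101 probe sets, 64 controls were left out. In the platform annotation 34958 had 1 symbol, 932 several and 9211 none listed; symbols were updated through Entrez identifiers to RefSeq GRCm38.p6, and the single-symbol probe set of highest mean log2 signal stood for a gene. Signals were quantile normalized, and log2 of the signal plus the 25th percentile (5.59) was fitted over all 12 arrays in R 4.3.3 by limma 3.58.1 (a mean for each stage, eBayes). Tests were two-sided, Benjamini-Hochberg adjusted across 11171 genes, at a threshold of 0.05. The fit was tested on simulated data, and the precision is limited by the number of arrays.

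The members and the lists were chosen with earlier results of these data known. All members could be named; of other pathway genes, up to 4 a role with the smallest adjusted p among those that passed; of marker and division genes, up to 3 of the brightest, and Cd44 and Il2ra. Mki67 was chosen after its values were seen.

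Per the labels, same-numbered samples share a source of cells. Their deviations from stage means correlated at 0.253 to 0.345, and those of different sorts at -0.243 to 0.108, so the sort pairs the samples; a blocked fit, with a term for the sort, was an alternative. No arrays were identical (0 pairs). Alternatives were other normalizations, offsets, filters and probe set rules, 8 arrays alone, sort pairs, eBayes with trend and robust settings, the block with the Gapdh 3′/5′ ratio, and each array left out. Promoter windows came from RefSeq. Plots used Python 3.11.15, pandas 2.3.3 and matplotlib 3.10.9.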

Additional observations from a re-analysis of the deposited data

Results flagged for a closer look

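In 99 groups of 4 arrays (33 members at 3 stages), 4 held an array far from the other 3, and chance flags about 1 in 20 groups. Prps2 had a value of 11.88 in DN3 replicate 1, where the others lay at 12.07 to 12.10, and of 11.79 in DN4 replicate 3, where the others lay at 12.01 to 12.05. Psat1 had 10.53 in DN2 replicate 2, with the others at 10.89 to 10.94. Psph had 8.86 in DN3 replicate 1, with the others at 8.53 to 8.58.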

How the results depend on the processing

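Of 37 member differences that passed, 6 passed under all 26 alternatives, and the direction of differences that passed under neither setting was not read. Counts are given for members higher or lower and for the other pathway genes in either direction. With the replicate block, 15 members were higher and 2 lower in DN3 than in DN2, where 9.97% and 10.9% of all genes were. In DN4 20 were higher than in DN3, where 15.5% of all genes were. The pathway counts at these steps were 13 and 16 with the block. The sort pairs the samples, and the block ended no call of the members. Without normalization between arrays 25 of the 37 calls ended. The members higher were then 1, 0 and 9 for DN3 over DN2, DN4 over DN3 and DN4 over DN2. Of all genes 2.63%, 0.348% and 2.56% were higher. The pathway counts were 2 at the first step and 11 from DN2 to DN4, and Mtrr turned to -0.0592 for DN4 minus DN3. With arrays centred on their median the pathway count at the later step was 4. With no filter on dim genes 4 members were higher in DN3, where 1.88% of all genes were, and the pathway counts were 3 and 2. With the filter at the 75th percentile 1 member was lower in DN3 and 11 were higher in DN4 than in DN3. With trend and robust settings these were 1 and 10. Of all genes 11.6% and 8.16% were higher in DN4 than in DN3 in these settings. With the mean of all probe sets Gmps turned to -0.00991 for DN4 minus DN2 and 0 members were lower in DN4 than in DN3; without probe sets that match several transcripts 0 were lower in DN4 than in either stage. With the 8 arrays compared alone the first pathway count was 3. In sorts 1 and 2 alone 0 members were higher at either step, and 12 from DN2 to DN4. Of all genes 0.806%, 0.322% and 7.48% were higher there for DN3 over DN2, DN4 over DN3 and DN4 over DN2. In these sorts 0 members were lower in DN4 than in either stage, and the pathway counts were 0, 0 and 11. In sorts 3 and 4 alone 1 member was higher in DN3, where 1.44% of all genes were. At the later step 0 members were higher, where 0.474% of all genes were, and 0 were lower. The pathway counts at the steps were 3 and 0 in these sorts. The block with the Gapdh ratio gave 0 members higher in DN3, 14 higher in DN4 than in DN3, and pathway counts of 1 and 14. Of all genes 1.42% and 12.1% were higher at these steps in that fit. Leaving out 1 array gave 3 to 9 members higher and 0 to 1 lower in DN3 than in DN2, 4 to 7 higher and 1 lower in DN4 than in DN3, 18 to 21 higher and 1 lower in DN4 than in DN2, and pathway counts of 3 to 5, 2 to 10 and 15 to 21. The shares of all genes called higher in these fits were 3.36% to 4.73%, 3.86% to 7.8% and 14.2% to 17.7%. Outside the main fit and the block, shares of all genes called lower were not tallied. Counts of lower members in those settings are therefore not read. Fewer arrays were fitted in the sort pairs; the cause of the other shifts was not tested. Signals are on the scale of each probe set, so levels of different genes are not compared. The SE of the member differences was 0.09 to 0.27, and differences of that size are not resolved by 4 arrays a stage. Some differences well above their SE did not pass either, such as 0.55 ± 0.17 for Dhodh from DN2 to DN3 (limma adjusted p = 0.0569).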
